A study of Homo sapiens with 6 samples.

Results

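The 39 genes described here handle superoxide, peroxides, oxidized thiols and iron, or belong to the NRF2 pathway that controls many of them. They were chosen by function: superoxide dismutases, catalase, glutathione peroxidases, peroxiredoxins, the thioredoxin and glutathione systems, methionine sulfoxide reductases, ferritins, NRF2 with its inhibitor KEAP1, and NRF2 target genes, with SOD2 and CAT included as FOXO targets. Earlier results of these data were known when the choice was made. All 39 were found among the 58735 genes of the count table, and 37 of them had enough reads to be tested, out of 14338 genes tested in all. RNA-Seq was performed with BT549 cells, an established basal-like breast cancer line, in 3 DMSO control samples and 3 samples treated with AS1842856, a small molecule inhibitor of FOXO1, for 48 h. The labels give the dose as 200 nM, and the study's methods give a higher one, so the dose stays uncertain. No allele or other agent separates the groups, the labels name no difference in genotype, and a single cell line limits every result to that line. The study calls the samples of each group biological replicates, while the labels do not say whether separate cultures were grown. Total counts per sample lay between 15289500 and 22981832.

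NRF2, encoded by NFE2L2, is a transcription factor that KEAP1 keeps low in unstressed cells by handing it to a ubiquitin ligase. When electrophiles or peroxides modify KEAP1, NRF2 accumulates, pairs with a small MAF protein and binds antioxidant response elements near genes for quinone reduction, glutathione synthesis, the thioredoxin system, heme breakdown and iron storage. FOXO factors are known to activate SOD2 and CAT, which remove superoxide and hydrogen peroxide in turn.

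Expression of marker genes was compared with the labelled cell type. Of 7 markers of a basal-like or mesenchymal breast line all were present, with VIM the most abundant at a mean of 254.6 FPKM (fragments scaled to gene length and library size) in controls. The summed level of these 7 genes was 854 to 873 FPKM in the controls and 640 to 648 FPKM in the treated samples, with 2 of the genes higher and 5 lower. Of the 8 markers of luminal or HER2-type epithelium, ESR1 and CDH1 had no FPKM value, PGR and EPCAM were near 0, and GATA3 was the most abundant at 14.7 FPKM in controls and 17.8 FPKM in treated samples. Their sum was 20.5 to 21.4 FPKM in controls and 23.3 to 25.3 FPKM after treatment. Of these 8 genes, 2 were called higher, 2 were called lower and 4 were not tested. Beside GATA3, KRT19 was called higher, from a mean of 1.277 FPKM in controls to 3.997 FPKM in treated samples. ERBB2 was called lower, from 4.501 to 2.411 FPKM, and so was FOXA1, from 0.358 to 0.168 FPKM. Blood and immune markers summed to 0.249 to 0.409 FPKM in controls and 0.513 to 0.949 FPKM in treated samples, with CD14 the most abundant, CD3E, HBB and HBA1 at 0 counts everywhere, and PTPRC called higher. Endothelial markers reached at most 0.0482 FPKM in any sample, and CDH5 was at 0 counts. The part of these marker differences in the results below was not tested. In a bulk sample, fewer cells of a type and less RNA per cell cannot be told apart.

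AS1842856 treatment split the antioxidant genes. MSRB3, SOD2 and HMOX1 fell to less than 50% of control, GPX4, TXNRD2, GPX7, MGST1 and TXNRD1 fell by 30.1% to 44.0%, and no gene rose by more than 33.2%, the value of PRDX2. By edgeR's quasi-likelihood test with Benjamini-Hochberg adjustment over all genes tested and a threshold of 0.05, 29 of the 37 tested genes were called, 10 higher and 19 lower. Treatment was broad, since 56.0% of all genes tested were called, 27.6% higher and 28.4% lower. Calls depend on abundance, and these genes are abundant. Of the 22 genes with a mean of at least 100 normalized counts scaled to library size (CPM), 17 were called, beside 76.4% of all genes at that level. Between 10 and 100 CPM, 10 of 12 were called beside 62.3% of all genes, and between 1 and 10 CPM, 2 of 3 beside 42.9%. The share called was thus near that of all genes at 100 CPM or more, where most of the 37 genes lie. It was above that of all genes in the 2 lower classes, which hold 15 of them. Those 2 classes count GPX3, CAT and MSRA as called, and each of these calls was lost with DESeq2 (adjusted p = 0.116, 0.0894 and 0.0642).

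Calls leaned to lower values. Of the 37 genes 51.4% were called lower and 27.0% higher, beside the 28.4% and 27.6% of all genes tested. These shares of all genes are not matched for abundance. Calls in either direction were more frequent at 100 CPM or more (76.4% of all genes), where most of the 37 lie. The median log2 fold change of the 37 genes was -0.11, beside 0.003 for all genes tested. Called falls reached 1 or more on the log2 scale in 3 of them, beside 6.33% of all genes, and called rises of that size occurred in 0 of them, beside 4.27%. Against the stricter hypothesis of a change beyond 1.2-fold (edgeR's glmTreat), 11 were lower and 1 was higher, beside 15.9% and 12.1% of all genes. Under at least 1 of the other alternatives described below, 5 of the lower and 3 of the higher calls were lost. Control and treated samples did not overlap for 27 of the 37, beside 59.9% of all genes, with treated samples above controls in 10 (29.5% of all genes) and below in 17 (30.3%). Most changes were small, as among all genes, with 28 of 37 (75.7%) under 0.5 on the log2 scale in either direction, beside 73% of all genes tested. The sizes of change had a median of 0.22 beside 0.26 for all genes tested. Together the 39 genes took 0.818% to 0.847% of all counts in the control samples and 0.709% to 0.732% in the treated samples, and the 2 ferritin genes alone took 0.276% to 0.301% and 0.254% to 0.269%.

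**Figure D1:**
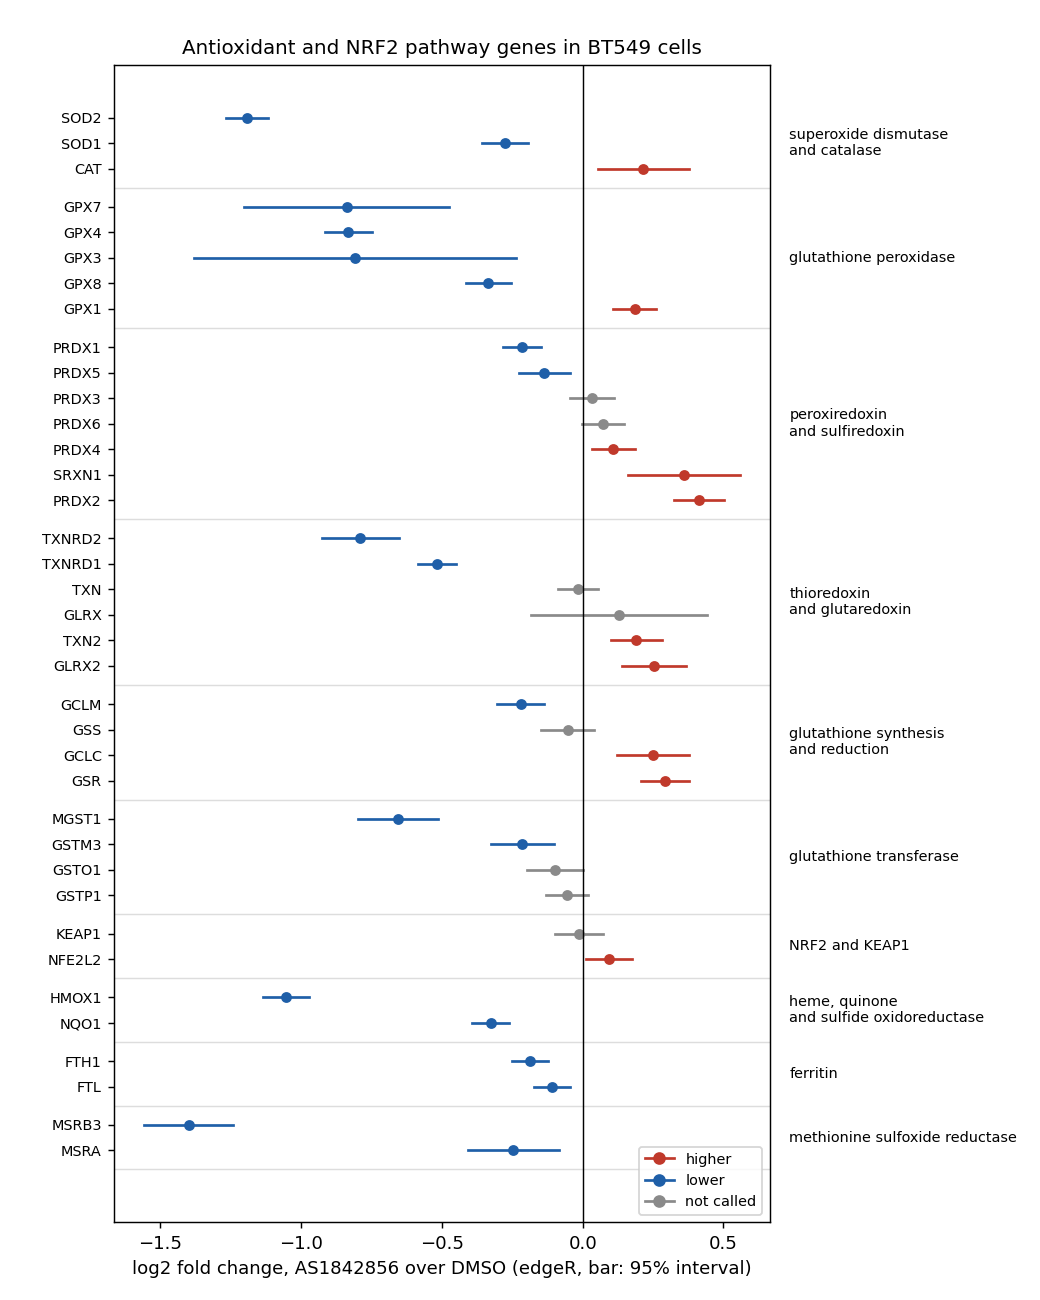
Log2 fold change of AS1842856 over DMSO for each of the 37 tested genes (x axis), grouped by role, with the 95% interval from edgeR as a bar (n = 3 per group). Red genes were called higher, blue genes lower and grey genes not called. SOD2, HMOX1 and MSRB3 lie left of -1, PRDX2 lies farthest right at 0.41, and most roles hold genes on both sides of 0.

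NRF2 itself changed little. NFE2L2 (chromosome 2, 177227595 to 177392697, minus strand, GRCh38) had 117, 120 and 121 CPM in the control samples and 128, 127 and 127 CPM in the treated samples. The treated samples all lay above the controls, by a log2 fold change of 0.09 ± 0.04 (SE; edgeR adjusted p = 0.0475). That call was lost with DESeq2 (adjusted p = 0.0997) and when any of the 6 samples was left out (edgeR adjusted p from 0.0664 to 0.146), so it does not hold up. KEAP1 (chromosome 19, 10486120 to 10503741, minus strand) had 108, 112 and 111 CPM in controls and 112, 108 and 107 CPM after treatment, with overlapping groups and a log2 fold change of -0.01 ± 0.04 (95% interval -0.10 to 0.07). Only RNA was measured, not protein. NFE2L2 shares 54 exon bases with AGPS on the opposite strand, whose counts were 35.4% of those of NFE2L2 and which fell by 0.22 on the log2 scale. Whether counting used strand is not given in the sources used here, and the part of AGPS reads was not tested.

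Proteins that act on or with NRF2 were examined next, as a list of 14 genes, all tested. Of these, 4 rose (28.6%, beside 27.6% of all genes tested) and 6 fell (42.9%, beside 28.4%), and the median of their log2 fold changes was -0.13. The largest fall was that of NFE2L3, a CNC-bZIP factor related to NRF2, from 68.6, 74.6 and 66.0 CPM to 14.5, 16.6 and 16.6 CPM (log2 fold change -2.12 ± 0.07, edgeR adjusted p = 1.61e-85). The related factor NFE2L1, known for inducing proteasome genes, fell by 0.45 on the log2 scale. MAFG, a small MAF partner of NRF2, rose from 41.0, 43.3 and 47.5 CPM to 60.4, 66.7 and 64.7 CPM (log2 fold change 0.55 ± 0.06). Of the other small MAF proteins, MAFK fell by 0.17 on the log2 scale (edgeR adjusted p = 0.00501) and MAFF was not called, at -0.11. DPP3, which binds KEAP1 in competition with NRF2, rose by 0.45 on the log2 scale. SQSTM1, the autophagy receptor that also sequesters KEAP1, fell by 0.15, and CUL3, the ligase scaffold that KEAP1 works with, rose by 0.11. The CUL3 call was lost with DESeq2 (adjusted p = 0.0816). BACH1, the repressor at many NRF2 sites, was not called (mean 32.8 CPM in controls and 35.9 CPM after treatment, edgeR adjusted p = 0.0862).

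The classical NRF2 target genes moved in both directions. HMOX1 (chromosome 22, 35380361 to 35394214, plus strand), the heme oxygenase that releases iron, biliverdin and carbon monoxide from heme, had 194, 176 and 189 CPM in controls and 88.0, 92.8 and 88.4 CPM after treatment. The groups lay far apart, with a log2 fold change of -1.05 ± 0.04 (edgeR adjusted p = 2.35e-68), a 2.08-fold fall. NQO1 (chromosome 16, 69706996 to 69726951, minus strand), the quinone reductase most used as a readout of NRF2, fell from 789, 769 and 785 CPM to 633, 604 and 632 CPM, a fall of 0.33 ± 0.03 on the log2 scale (edgeR adjusted p = 2.56e-18). TXNRD1 (chromosome 12, 104215779 to 104350305, plus strand), the cytosolic thioredoxin reductase, fell from 637, 647 and 656 CPM to 469, 444 and 444 CPM (log2 fold change -0.52 ± 0.03). GCLM (chromosome 1, 93885205 to 93909456, minus strand), the modifier subunit of glutamate-cysteine ligase, fell from 124.7, 131.1 and 138.6 CPM to 118, 113 and 107 CPM (log2 fold change -0.22 ± 0.04). These 4 genes were lower in all 3 treated samples than in any control sample.

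The other 2 classical targets rose. GCLC (chromosome 6, 53497341 to 53616970, minus strand), the catalytic subunit of the same ligase, had 35.3, 35.2 and 36.8 CPM in controls and 42.5, 44.0 and 41.0 CPM after treatment (log2 fold change 0.25 ± 0.06, edgeR adjusted p = 0.000353). SRXN1 (chromosome 20, 646615 to 653370, minus strand), the sulfiredoxin that repairs overoxidized peroxiredoxins, had 14.35, 11.7 and 13.2 CPM and then 18.3, 14.98 and 17.7 CPM (log2 fold change 0.36 ± 0.10, edgeR adjusted p = 0.00118). Both genes had groups that did not overlap, although SRXN1 sample B after treatment stood only 0.631 CPM above control A. Of the 6 classical targets, 4 were therefore lower and 2 higher, where 28.4% of all genes tested were lower and 27.6% higher.

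**Figure D2:**
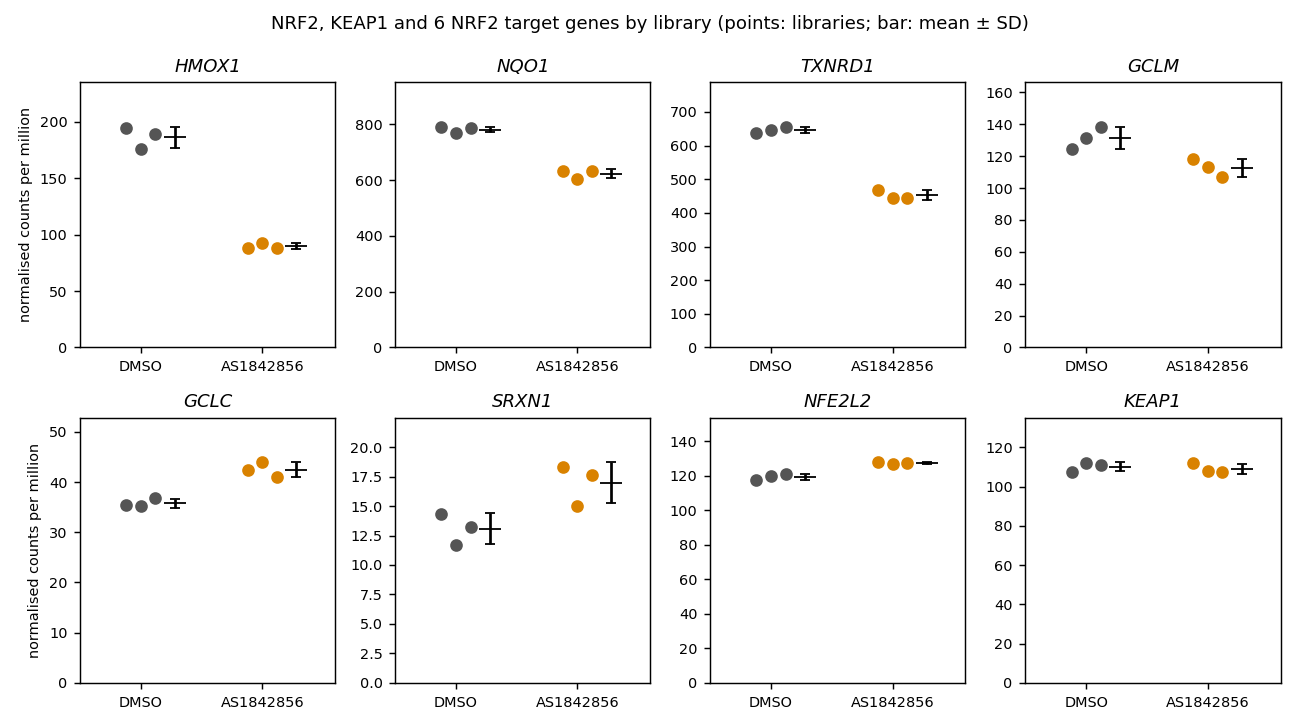
CPM of NFE2L2, KEAP1 and 6 classical NRF2 target genes in each sample (y axis, starting at 0), with DMSO samples in grey, AS1842856 samples in orange and the mean ± SD of 3 samples as a black bar. HMOX1 drops to about 90 CPM from 176 CPM or more, GCLC and SRXN1 rise, and the KEAP1 groups overlap.

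The antioxidant response element was searched in promoter sequences because NRF2 binds there. RefSeq windows of 300 bases, from 250 before to 50 after an annotated start (GRCh38.p14), were at hand for 30 of the 39 genes, with 46 windows in all since some genes have several starts. No window was at hand for FTH1, TXN2, PRDX6, GSR, SOD1, GSS, PRDX1, MSRA or HMOX1. The element core, TGACNNNGC on either strand, was in 7 of the 46 windows (15.2%), beside 13.3% of 35116 windows of all genes. The AP-1 site TGACTCA was in 1 window (2.17% beside 4.95%), and the FOXO core GTAAACA was in 2 windows, of GLRX2 and GSTP1 (4.35% beside 3.42%). The shares of the element and FOXO cores were close to those of all windows, and the AP-1 share rests on a single window. Genes with the element core in a window were GCLM, GSTO1, GSTP1, KEAP1, MGST1 and TXNRD1, of which GCLM, MGST1 and TXNRD1 fell and the other 3 were not called. A match describes letters in a window and is not a measured binding site, and no match says only that these letters are not in that window.

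Stretches of 4 promoters are shown because they hold the element core in genes of different outcome, with GCLM and TXNRD1 lower and GSTP1 and KEAP1 not called. Each runs 5′ to 3′ on the gene's strand over 120 bases and ends on the annotated start base, and capitals mark the element core or its reverse complement. GCLM is read from chr1:93909430-93909549 (minus strand), TXNRD1 from chr12:104215660-104215779 (plus strand), GSTP1 from chr11:67583693-67583812 (plus strand) and KEAP1 from chr19:10502771-10502890 (minus strand).
GCLM: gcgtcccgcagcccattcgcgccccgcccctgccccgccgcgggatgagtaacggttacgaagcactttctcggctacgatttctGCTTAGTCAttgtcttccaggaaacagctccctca
TXNRD1: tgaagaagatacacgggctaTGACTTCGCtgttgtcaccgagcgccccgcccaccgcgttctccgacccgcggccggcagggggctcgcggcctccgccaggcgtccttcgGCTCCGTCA
GSTP1: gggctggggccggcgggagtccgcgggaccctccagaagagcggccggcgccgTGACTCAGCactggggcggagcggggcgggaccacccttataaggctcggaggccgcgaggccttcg
KEAP1: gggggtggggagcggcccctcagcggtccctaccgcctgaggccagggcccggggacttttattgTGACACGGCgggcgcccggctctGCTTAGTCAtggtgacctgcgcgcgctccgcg
In GCLM the core starts 34 bases before the start, and the same 9 letters occur in KEAP1, 31 bases before the start. KEAP1 has another match 54 bases before its start, and TXNRD1 has matches 99 and 8 bases before the start shown. TXNRD1 has another annotated start, whose window (chr12:104286782-104287081) holds a match 102 bases before it and is not shown. In GSTP1 the core overlaps the AP-1 site, and both begin 66 bases before the start.

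SOD2 and CAT, the FOXO targets of the list, moved apart. SOD2 (chromosome 6, 159669057 to 159745186, minus strand), the mitochondrial manganese superoxide dismutase, had 314, 333 and 334 CPM in controls and 152, 137 and 140 CPM after treatment. Treated samples were all below the lowest control, with a log2 fold change of -1.19 ± 0.04 (edgeR adjusted p = 8.51e-85), a 2.29-fold fall. SOD2 shares 298 exon bases with WTAP on the opposite strand, whose counts were 43.9% of those of SOD2 and which fell by 0.29. CAT (chromosome 11, 34438925 to 34472062, plus strand), the peroxisomal catalase, had 22.6, 21.5 and 20.6 CPM in controls and 26.7, 25.5 and 22.99 CPM after treatment. CAT was called higher by a log2 fold change of 0.22 ± 0.08 (edgeR adjusted p = 0.0185), with groups 0.356 CPM apart. The call was lost with DESeq2 (adjusted p = 0.0894), without the count filter (edgeR adjusted p = 0.0512), and when control C, treated A or treated B was left out (edgeR adjusted p = 0.102, 0.113 and 0.0694).

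SOD1, the cytosolic copper-zinc dismutase, fell by 0.28 ± 0.04 on the log2 scale from a mean of 144 ± 4.71 CPM to 119 ± 3.36 CPM (SD, n = 3). SOD3, the secreted dismutase, had 0 counts in every sample, which allows at most 3 counts per library. Such a limit covers counting error only, since PCR copies cannot be told from separate molecules.

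Among the 5 glutathione peroxidases, which reduce peroxides at the expense of glutathione or another thiol, 4 were called lower and GPX1 higher, where 28.4% of all genes tested were lower and 27.6% higher. GPX4 (chromosome 19, 1103926 to 1106791, plus strand), the selenoenzyme that reduces lipid hydroperoxides and restrains ferroptosis, had 199, 177 and 174 CPM in controls and 105, 99.5 and 106 CPM after treatment. With no overlap between groups, the log2 fold change was -0.83 ± 0.04 (edgeR adjusted p = 9.79e-49). GPX7 (chromosome 1, 52602372 to 52609051, plus strand), a peroxidase of the endoplasmic reticulum, fell from 4.96, 5.86 and 5.17 CPM to 3.36, 2.54 and 3.08 CPM (log2 fold change -0.84 ± 0.18). GPX8 (chromosome 5, 55160118 to 55167071, plus strand), found in the same compartment, fell from 151, 155 and 150 CPM to 120, 121 and 120 CPM (log2 fold change -0.34 ± 0.04). GPX3, the secreted plasma enzyme, was low, at 1.30 to 3.17 CPM in controls and 0.900 to 1.85 CPM after treatment. GPX3 was called at -0.81 ± 0.29 although its groups overlapped, and the call was lost with DESeq2 (adjusted p = 0.116) and without control C or treated A (edgeR adjusted p = 0.216 and 0.0795), with a log2 fold change of -0.51 without control C. GPX1, the abundant cytosolic selenoenzyme, rose from a mean of 174 ± 8.69 CPM to 198 ± 4.56 CPM (SD, n = 3), a log2 fold change of 0.18 ± 0.04.

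Peroxiredoxins, which remove hydrogen peroxide, moved by 0.41 or less on the log2 scale. PRDX2 (chromosome 19, 12796820 to 12801859, minus strand), a cytosolic peroxiredoxin, had 88.0, 93.5 and 85.6 CPM in controls and 118, 117 and 121 CPM after treatment. Its log2 fold change of 0.41 ± 0.04 (edgeR adjusted p = 8.86e-17) was the largest rise among the 37 genes, and the groups lay well apart. PRDX1, the related and more abundant cytosolic enzyme, fell by 0.22 ± 0.03 on the log2 scale from 484 ± 1.32 CPM to 417 ± 12.1 CPM (SD, n = 3). PRDX4, of the endoplasmic reticulum, was called 0.11 higher and PRDX5 0.14 lower with overlapping groups, and both calls were lost under several alternatives. PRDX5 lost its call without control A, at -0.07 (edgeR adjusted p = 0.21), PRDX4 without control B, control C or treated C (edgeR adjusted p = 0.0681, 0.101 and 0.142). PRDX3, of mitochondria, and PRDX6, which also acts on phospholipids, were not called, at 0.03 ± 0.04 and 0.07 ± 0.04.

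In the thioredoxin system, transcripts of both reductases fell while those of their thioredoxin substrates did not. TXNRD2 (chromosome 22, 19875517 to 19941992, minus strand), the mitochondrial thioredoxin reductase, had 43.5, 42.4 and 44.1 CPM in controls and 26.8, 23.9 and 24.7 CPM after treatment. The fall of 0.79 ± 0.07 on the log2 scale (edgeR adjusted p = 2.34e-23) left no overlap. TXN, the cytosolic thioredoxin that TXNRD1 reduces, was not called, at 327 ± 7.95 CPM and 323 ± 5.24 CPM (SD, n = 3; 95% interval of the log2 fold change -0.09 to 0.05). TXN2, the mitochondrial thioredoxin, rose by 0.19 ± 0.05 on the log2 scale, from 84.1 to 88.1 CPM in controls to 95.1 to 100.5 CPM after treatment. GLRX2, a mitochondrial glutaredoxin, rose by 0.25 ± 0.06 on the log2 scale, but 481 of its exon bases lie opposite TROVE2, which had 138.8% of its counts and rose by 0.36. GLRX, the cytosolic glutaredoxin, was not called at 4.04 to 5.83 CPM in controls and 4.91 to 6.42 CPM after treatment.

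Glutathione synthesis and recycling were mixed. GSR, which reduces oxidized glutathione, rose by 0.29 ± 0.04 on the log2 scale, from 99.6 to 111 CPM in controls to 125 to 128 CPM after treatment. GSS, the enzyme of the last step of synthesis, was not called, at 84.8 ± 2.99 CPM and 81.9 ± 1.41 CPM (SD, n = 3). Of the 4 glutathione transferases, MGST1 and GSTM3 fell and GSTP1 and GSTO1 were not called, so that 50% were called beside 56.0% of all genes tested. MGST1 (chromosome 12, 16347142 to 16609259, plus strand), a membrane-bound transferase with peroxidase activity, had 41.2, 38.4 and 37.2 CPM in controls and 25.3, 25.1 and 23.7 CPM after treatment (log2 fold change -0.66 ± 0.07, edgeR adjusted p = 1.39e-16). GSTM3 fell by 0.21 ± 0.06 on the log2 scale, and GSTP1 and GSTO1 had values of -0.06 ± 0.04 and -0.10 ± 0.05. GSTO1 passed the threshold only without treated C (edgeR adjusted p = 0.0468).

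Methionine sulfoxide reductases repair oxidized methionine in proteins. MSRB3 (chromosome 12, 65278643 to 65491430, plus strand), which acts on the R form of the sulfoxide, had 36.8, 41.1 and 40.0 CPM in controls and 16.6, 14.2 and 14.1 CPM after treatment. This was the largest change of the 37 genes, a 2.64-fold fall (log2 fold change -1.40 ± 0.08, edgeR adjusted p = 2.41e-43), with every treated sample under 17 CPM. MSRA, which acts on the S form, fell by 0.25 ± 0.08 on the log2 scale, and that call was lost with DESeq2 (adjusted p = 0.0642) and without treated C (edgeR adjusted p = 0.112). SQOR, the mitochondrial sulfide quinone oxidoreductase, had 1 to 5 counts per sample and was not tested.

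FTL and FTH1, the light and heavy ferritin chains that store iron, were the most abundant genes of the list per length. FTL (chromosome 19, 48965301 to 48966878, plus strand) had 1598, 1479 and 1548 CPM in controls and 1415, 1398 and 1474 CPM after treatment. Treated C lay only 4.68 CPM below control B, and the fall was 0.11 ± 0.03 on the log2 scale (edgeR adjusted p = 0.00182). That call was not reached by limma on log2(FPKM + 1), with adjusted p = 0.0528 for genes above a mean FPKM of 0.5 and 0.326 without that filter. FTH1 (chromosome 11, 61959718 to 61967660, minus strand) had 1429, 1265 and 1352 CPM in controls and 1174, 1160 and 1220 CPM after treatment, a fall of 0.19 ± 0.03 on the log2 scale (edgeR adjusted p = 1.73e-07), and its call was lost with limma on log2(FPKM + 1) without a filter (adjusted p = 0.0631). The annotation lists 25 processed copies of FTH1, which held 0.572% as many counts as the gene itself, so how shared reads were split adds some uncertainty.

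Levels per length spanned a wide range. FTL stood at a mean of 1745 FPKM in controls and FTH1 at 660 FPKM, followed by PRDX1 at 316 FPKM, TXN at 284.5 FPKM and NQO1 at 238.5 FPKM. The control samples of PRDX1 and TXN did not overlap, nor did those of TXN and NQO1. GSTP1, GPX1 and PRDX5 came next at 125, 121 and 119 FPKM, and these neighbours did not differ beyond their spread. After treatment PRDX1 stood at 272 FPKM and TXN at 281 FPKM, with overlapping samples. HMOX1 went from 77.0 to 37.1 FPKM, GPX4 from 90.2 to 50.8 FPKM and SOD2 from 19.7 to 8.63 FPKM. The lowest tested gene was GPX3 at 0.712 and 0.412 FPKM. FPKM divides SOD2 by 16493 exon bases, the summed exons of all its annotated transcripts, so its level per length rests on that long union.

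**Figure D3:**
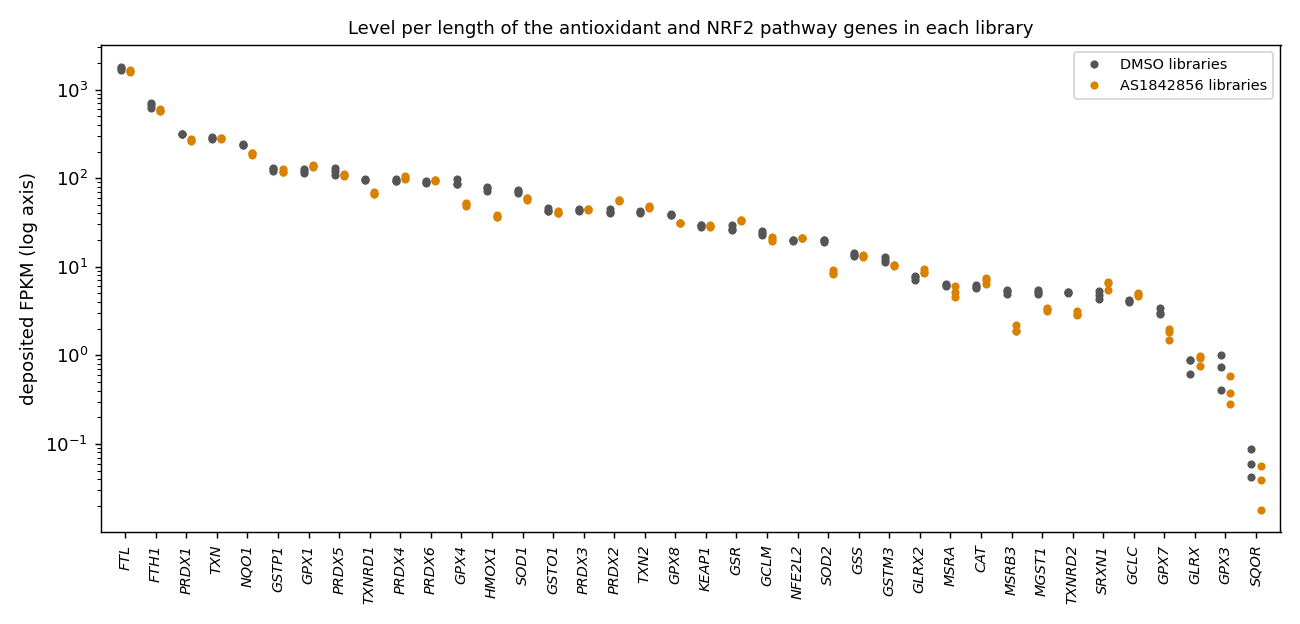
Deposited FPKM (log y axis) of the 38 genes with an FPKM value in each sample, ordered by their control mean, with 3 DMSO samples in grey and 3 AS1842856 samples in orange. The order runs from FTL near 1745 FPKM to SQOR near 0.06 FPKM, and the gaps at HMOX1, GPX4, SOD2, MSRB3, MGST1 and TXNRD2 show the larger falls.

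Ratios of FPKM within a sample do not depend on how libraries are scaled. The pairs were chosen after their values were seen, so they are given with no test. The ratio of GCLC to GCLM, the 2 subunits of glutamate-cysteine ligase, was 0.171 ± 0.006 in controls and 0.236 ± 0.010 after treatment (SD, n = 3). TXN2 to TXNRD2 went from 8.09 ± 0.0914 to 15.9 ± 0.902, and TXN to TXNRD1 from 2.97 ± 0.117 to 4.20 ± 0.195. In each of these pairs the ratio of transcripts was higher in all 3 treated samples than in any control sample. Protein was not measured. CAT to SOD2 was 0.303 ± 0.0250 in controls and 0.804 ± 0.0513 after treatment. GPX1 to GPX4 was 1.34 ± 0.0469 and 2.71 ± 0.118, and PRDX2 to PRDX1 was 0.134 ± 0.00577 and 0.207 ± 0.00227. GSR to TXNRD1, which reduce glutathione and thioredoxin, was 0.285 ± 0.0140 and 0.499 ± 0.0150. FTH1 to FTL, the ferritin chains, went from 0.378 ± 0.00833 to 0.359 ± 0.000476. KEAP1 to NFE2L2 went from 1.47 ± 0.0192 to 1.36 ± 0.0266, with no overlap between groups.

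**Figure D4:**
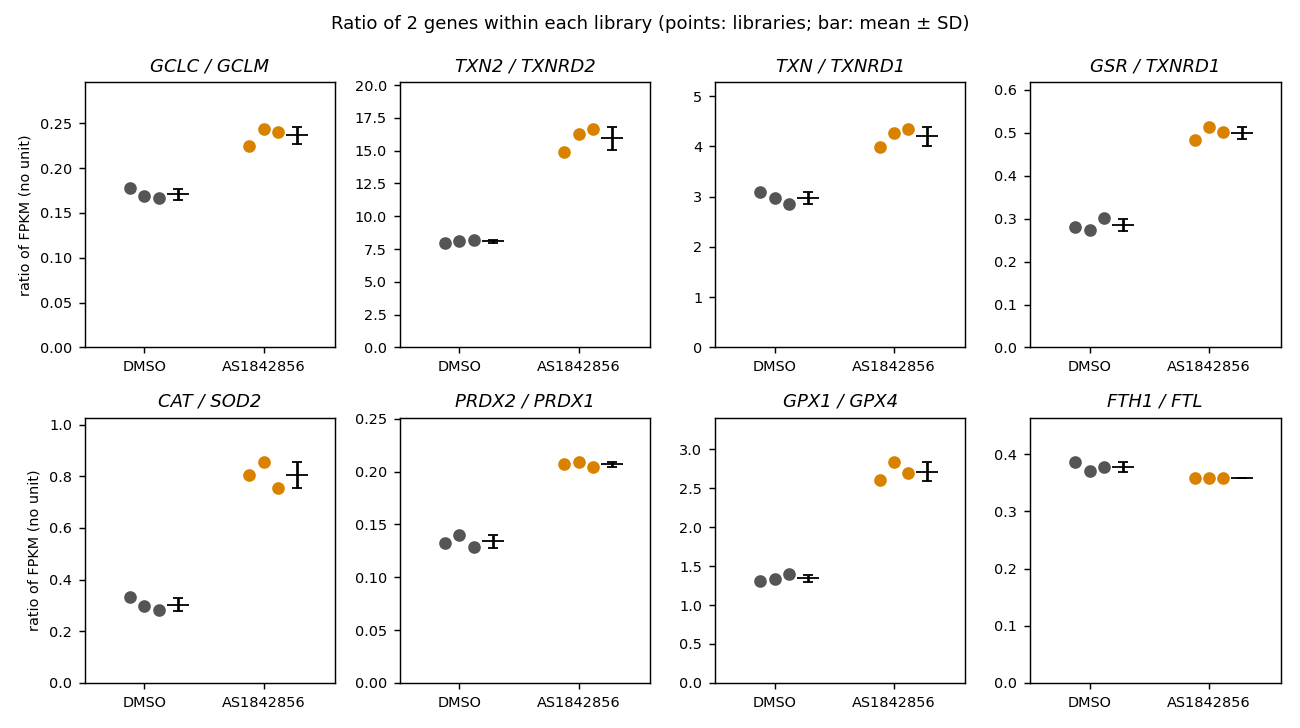
Ratio of the FPKM of 2 genes within each sample (y axis, no unit, starting at 0) for 8 of the 9 pairs, without KEAP1 to NFE2L2, with DMSO samples in grey, AS1842856 samples in orange and the mean ± SD of 3 samples in black. Groups do not overlap in any of these 8 pairs, and CAT to SOD2, GPX1 to GPX4 and TXN2 to TXNRD2 show the widest gaps.

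Further genes of the pathway were read from 9 lists of 155 genes, of which 119 were tested. Of the 119, 36 were called higher and 40 lower (median -0.02 on the log2 scale), beside 27.6% higher and 28.4% lower for all genes tested. Among further NRF2 targets, 23 of 27 were tested, 8 were higher (34.8%) and 9 lower (39.1%), beside 27.6% and 28.4% of all genes. SLC7A11, the cystine transporter that feeds glutathione synthesis, rose from 26.9, 24.8 and 23.9 CPM to 84.0, 75.4 and 76.6 CPM (log2 fold change 1.64 ± 0.06, edgeR adjusted p = 1.03e-73). OSGIN1, a growth inhibitor induced by oxidative stress, rose from 4.46, 3.71 and 2.21 CPM to 11.1, 11.5 and 11.4 CPM (log2 fold change 1.70 ± 0.15). SLC48A1, a heme transporter, fell by 1.48 on the log2 scale and CBR3, a carbonyl reductase, by 1.43. TKT and TALDO1, enzymes of the pentose phosphate pathway, were not called (log2 fold changes of -0.05 and -0.08).

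Sulfide and cysteine enzymes were tested for 8 of 10 genes, with 3 higher and 3 lower (37.5% each), beside 27.6% higher and 28.4% lower of all genes tested. CTH, which makes cysteine from cystathionine, rose from 2.46, 3.26 and 2.85 CPM to 8.88, 11.3 and 9.14 CPM (log2 fold change 1.80 ± 0.16), and CBS, the step before it, rose by 0.54. TST, a mitochondrial sulfurtransferase, fell by 0.84 on the log2 scale. Further glutathione enzymes gave 2 higher (13.3%, beside 27.6% of all genes) and 4 lower (26.7%, beside 28.4%) of 15 tested, with CHAC1, which degrades glutathione, higher by 0.74 and GSTK1 by 0.23. OPLAH, which recycles oxoproline to glutamate, fell by 1.18 and HAGH, a glyoxalase, by 1.12.

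Iron handling and ferroptosis genes were 8 higher and 2 lower of 16 tested (median 0.10 on the log2 scale), or 50% and 12.5%, beside 27.6% and 28.4% of all genes tested. SLC3A2, the partner chain of SLC7A11, rose from 277, 254 and 265 CPM to 421, 431 and 436 CPM (log2 fold change 0.69 ± 0.04). ACSL4, which loads polyunsaturated fatty acids into lipids that can peroxidize, rose by 0.61, and TFRC, the transferrin receptor, rose by 0.36 from a mean of 780.5 CPM to 1002 CPM. AIFM2, a ubiquinone reductase that restrains ferroptosis, fell by 0.59, and ACO1, an iron-responsive RNA-binding protein, by 0.22. Read beside the members, SLC7A11 and SLC3A2 rose while GPX4, FTH1 and FTL fell.

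Of selenoproteins and the machinery that inserts selenocysteine, 5 rose and 7 fell among 18 tested, or 27.8% and 38.9%, beside 27.6% and 28.4% of all genes tested. SECISBP2, which binds the selenocysteine insertion element, rose by 0.54 and SELENOI, a phospholipid enzyme, by 0.48. SEPSECS, which makes selenocysteine on its transfer RNA, fell by 0.69 on the log2 scale. DIO2, a thyroid hormone deiodinase, was called 2.05 lower at a mean of only 1.67 CPM in controls. DIO2 had 42, 26 and 26 counts in controls and 7, 10 and 6 counts after treatment and passed the filter on low counts only through the controls, so its call supports nothing. Among the 5 members that are selenoproteins, GPX3, GPX4, TXNRD1 and TXNRD2 were called lower and GPX1 higher. The groups of GPX3 overlapped, and its call was lost with DESeq2 (adjusted p = 0.116). Of thiol oxidoreductases outside the members, 4 rose (22.2%, beside 27.6% of all genes) and 5 fell (27.8%, beside 28.4%) of 18 tested. SESN2, a stress-induced sestrin, rose by 0.76 and TXNDC17, a thioredoxin-like protein, by 0.37, while TXNRD3 fell by 0.55 and MSRB2 by 0.36. The MSRB2 call was lost with DESeq2 (adjusted p = 0.0821).

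Sources of superoxide and peroxide were mostly too low to test, with 5 of 17 tested. AOX1, aldehyde oxidase, fell from 23.5, 24.03 and 24.3 CPM to 3.96, 5.04 and 3.59 CPM (log2 fold change -2.49 ± 0.12, edgeR adjusted p = 6.79e-56), and XDH, xanthine oxidoreductase, fell by 1.30. NOX4, an NADPH oxidase, was called 2.59 higher at a mean of only 0.254 CPM in controls, with 7, 6 and 1 counts in controls and 26, 40 and 23 counts after treatment. It passed the filter on low counts only through the treated samples, where it is high, so it had to differ and its call supports nothing. NOX4 was named after its values were seen, since its mean was under 1 CPM. Metallothioneins, which bind zinc and copper through cysteines, had 2 of 10 genes tested, and these moved apart. MT2A fell from 124, 119 and 116 CPM to 58.5, 64.1 and 64.2 CPM, and MT1X rose from 1.32, 1.56 and 1.56 CPM to 8.34, 7.75 and 11.2 CPM.

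**Figure D5:**
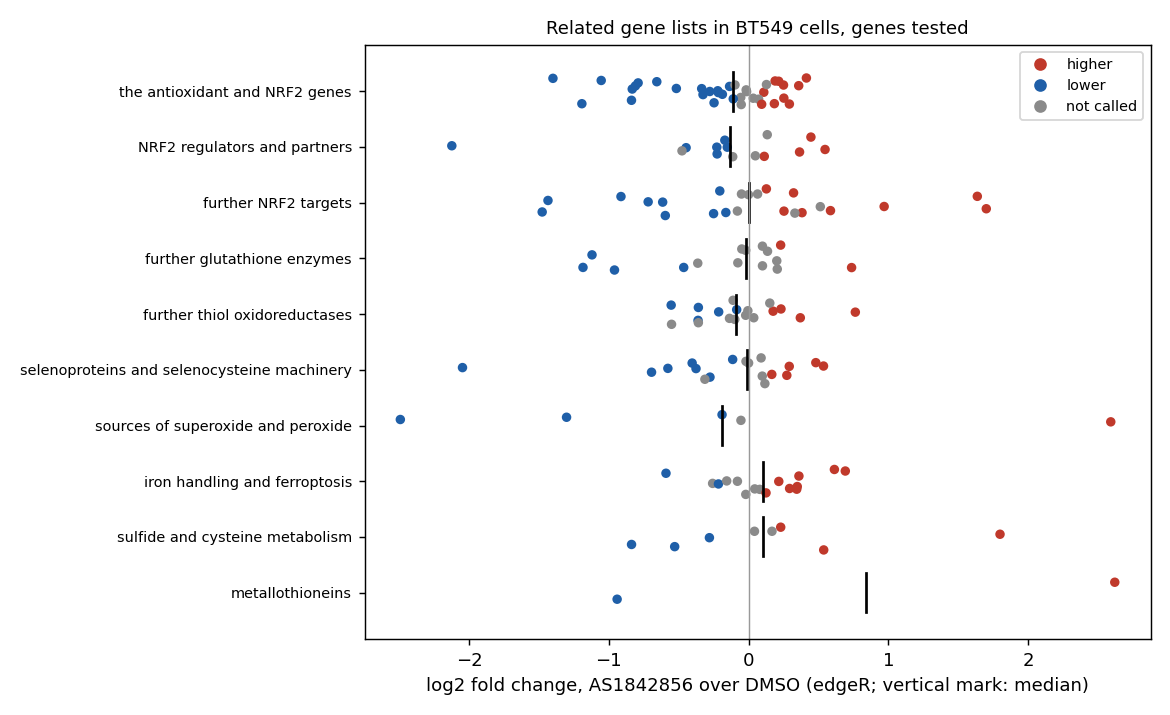
Log2 fold change of AS1842856 over DMSO (x axis, edgeR, n = 3 per group) of the 37 tested antioxidant and NRF2 genes and of the tested genes of 9 related lists, 1 point per gene, with the median of each list as a black mark. Red points were called higher, blue lower and grey not called, every list holds both red and blue points, and medians lie between -0.19 and 0.10 except for the 2 metallothioneins.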

How the data were processed

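RNA-Seq libraries of BT549 cells were grouped by their labels as DMSO or AS1842856, with 3 samples each. The authors deposited raw counts per gene, without normalization, and FPKM values per gene, which divide counts by gene length and library size. The study's methods name STAR for mapping and DESeq2 for testing, and the submitters' processing notes name CASAVA, Bowtie 0.12.2 and GRCh38. How reads were counted and whether strand was used are not given in the sources used here. Gene identifiers were all found in GENCODE 29, and FPKM lengths were within 1% of its exon unions for 98.8% of genes.

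Counts were analysed with edgeR 4.0.16 in R 4.3.3. Genes were kept by filterByExpr (minimum count 10, minimum total 15), which removed 13170 genes with counts and kept 99.9% of counts, with TMM scaling of libraries. The 2 groups were tested with robust glmQLFit and glmQLFTest without a block, with Benjamini-Hochberg adjustment over 14338 genes and a threshold of 0.05. SE was the log2 fold change divided by the square root of F. An exact permutation test of 3 against 3 samples of a single gene cannot go below 0.10 and was not used. On simulated counts of 14311 genes for this comparison the fit recovered 38.5% of genes changed 1.2-fold, 87.9% at 1.5-fold and 93.9% at 2-fold. Of its calls, 2.68% were false. Only 65, 66 and 66 genes were changed at these sizes, and all genes were given the same biological variation. In the data 56.0% of genes were called, so these rates need not carry over. The common biological coefficient of variation was 0.0374, and p-values measure the spread between these samples, which may be partly technical. Replicates differed by more than sampling noise (chi-square per degree of freedom 2.32 to 3.12). SOD2 stands for the identifier with nearly all its reads, since another one has 4 counts.

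Members and lists were chosen with earlier results of these data known. Values in every sample are given for SOD2, CAT, NFE2L2, KEAP1, the 6 classical NRF2 targets, the 12 members with the largest called changes and no overlap between groups, the 2 most abundant members and members not tested. Of each related list, the 2 largest called rises and falls with a mean of at least 1 CPM were named, some with their log2 fold change alone. TFRC, TKT, TALDO1, SQSTM1, CUL3, BACH1, MAFK, MAFF and NOX4 were added after their values were seen. Of the lists, GSTT1 was not used here, and some genes that the rule names are not reported here. The alternatives were DESeq2 1.42.0, edgeR with the size factors of DESeq2 or with library totals, edgeR without a count filter or with genes averaging 50 counts or more, omission of each sample, a block for the replicate letter, limma 3.58.1 on log2 FPKM with a pseudocount of 1 or 0.1 where mean FPKM reached 0.5 and with a pseudocount of 1 without a filter, and glmTreat beyond 1.2-fold.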

Additional observations from a re-analysis of the deposited data

How the results depend on the processing

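The counts of genes called, 29 in all, 10 higher and 19 lower, stayed within 1.5 times under every alternative but glmTreat, which asks for a change beyond 1.2-fold and called 12, of which 1 was higher and 11 lower, as well as 4018 of all genes and 43 of the related genes. DESeq2 called 24 of the antioxidant genes and 6804 of all genes. The median log2 fold change of the antioxidant genes lay between -0.1426 and -0.0743 when each sample was left out, lowest without control B and highest without control A. Of the 29 calls, 21 kept call and direction under all alternatives other than glmTreat, 7 higher and 14 lower, and 8 lost the call under at least 1 of them, namely CAT, NFE2L2, PRDX4, GPX3, PRDX5, FTL, FTH1 and MSRA. The sign changed once, for GLRX, which was never called and ranged from -0.0148 to 0.2495 when each sample was left out. The cause of these changes was not tested.

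The replicate letter showed no strong pairing of the samples. Correlations of deviations were 0.042, -0.012 and -0.00332 for same-letter samples and -0.0278 to 0.0297 for different letters. With 3 samples per group, these values cannot exclude that same-letter samples were handled together. With the letter as a block, 28 antioxidant genes and 7862 genes in all were called, and the only antioxidant call lost was that of NFE2L2 (adjusted p = 0.0644). Depth limits GPX3, GLRX and GPX7, which had between 205 and 627 counts over the 6 samples, and SQOR and SOD3, which were not tested.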
